A study of Mus musculus with 29 samples.

Results

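The enzymes that build triglyceride were followed in brown adipose tissue (BAT) and gastrocnemius skeletal muscle (SkM). They were taken by symbol from the gene count table, and all 10 listed genes were found among its 24770 rows: Gpd1, Gpam, Agpat2, Agpat3, Lpin1, Lpin2, Lpin3, Dgat1, Dgat2 and Mogat2. The study treated male wild-type C57BL/6J mice from 8 weeks of age for 8 weeks in 4 groups: chow controls fed freely, calorie restriction (CR) to a final 70% of free intake, treadmill running (EX) of 1 h on 5 days a week, and both together (CREX). Every group, controls included, was fasted for 6 h before tissues were taken, 24 h after the last run. BAT gave 3 control, 4 CR, 4 EX and 4 CREX libraries and SkM gave 4 control, 3 CR, 4 EX and 3 CREX libraries. These are whole tissues, so the values are averages over all the cells that each piece held.

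Triglyceride is made by adding fatty acyl chains one after another to a glycerol backbone. Glycerol-3-phosphate, which GPD1 makes from a glycolytic intermediate, is acylated by a glycerol-3-phosphate acyltransferase such as GPAM and again by an AGPAT; a lipin then removes the phosphate to give diacylglycerol, and DGAT1 or DGAT2 adds the last chain. MOGAT2 makes diacylglycerol from monoacylglycerol, a route best known from the intestine, and brown fat keeps its triglyceride in many small droplets as fuel for heat production.

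Each library held 21047242 to 24919377 counts in BAT and 23050918 to 23425284 in SkM. Levels are given as CPM, the usual count scaled by library size, with TMM factors set within each tissue, and n is the number of libraries. The sources used here do not say that each library of a tissue came from its own mouse, so p-values measure the spread between libraries. Tissue identity fitted the labels: summed adipocyte markers reached 8804 to 11181 CPM in BAT libraries, against 85.1 to 315 CPM in muscle, and summed fast muscle fibre markers reached 135101 to 232993 CPM in SkM. The BAT libraries nevertheless held fast fibre markers at a summed 47.6 to 7436 CPM, with BAT CREX replicate 3 at the top and EX replicates 2 and 3 at 4635 and 4741 CPM. Hepatocyte markers summed to 65.8, 285 and 302 CPM in the SkM CR libraries and to 7.04 to 10.8 CPM in the SkM controls, and 9 of the 9 markers tested were higher in CR. Slow fibre markers summed to 546, 78.0 and 18.6 CPM in SkM CREX replicates 1, 2 and 3, against 928 to 1674 CPM in the controls. In whole tissue, fewer cells of a type and less RNA per cell cannot be told apart.

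A gene is called a DEG below when its edgeR quasi-likelihood p-value, adjusted over all genes tested by Benjamini-Hochberg, was under 0.05 and its fold change was over 1.5. Fold changes are given on the log2 scale with their standard error (SE).

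Lpin1 and Gpam were the members that reached both thresholds in a CR comparison, Lpin1 upregulated in BAT and Gpam downregulated in SkM. The 250 bases before their RefSeq start sites (build GRCm38.p6) are shown because they are the genes on which the comparisons turn. Capitals mark matches, on either strand, to 5 short motifs: the E-box CACGTG, the sterol regulatory element TCACNCCAC, the CCAAT box CCAAT, and the nuclear receptor half-sites AGAACA (steroid receptors) and AGGTCA. The Lpin1 window is chr12:16610967-16611216, the first Gpam window is chr19:55127239-55127488 and the second is chr19:55099478-55099727, all on the minus strand and written 5′ to 3′.
Lpin1: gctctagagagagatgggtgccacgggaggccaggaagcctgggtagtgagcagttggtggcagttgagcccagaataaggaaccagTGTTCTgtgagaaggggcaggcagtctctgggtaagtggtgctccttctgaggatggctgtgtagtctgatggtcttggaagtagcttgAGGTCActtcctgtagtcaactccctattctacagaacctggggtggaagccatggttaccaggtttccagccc
Gpam first start: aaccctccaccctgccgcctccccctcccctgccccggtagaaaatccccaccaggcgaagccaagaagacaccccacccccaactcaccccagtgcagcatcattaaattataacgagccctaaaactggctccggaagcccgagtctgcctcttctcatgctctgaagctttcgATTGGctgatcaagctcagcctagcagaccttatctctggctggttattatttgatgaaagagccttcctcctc
Gpam second start: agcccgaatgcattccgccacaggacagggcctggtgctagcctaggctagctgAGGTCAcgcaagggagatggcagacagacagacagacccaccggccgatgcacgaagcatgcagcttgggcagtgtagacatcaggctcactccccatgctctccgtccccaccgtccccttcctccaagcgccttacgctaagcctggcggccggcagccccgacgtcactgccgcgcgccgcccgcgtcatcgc
Numbering bases back from the start, the Lpin1 window held 1 AGAACA match at -163 to -158 on the opposite strand and 1 AGGTCA match at -74 to -69. The first Gpam window held 1 CCAAT match at -74 to -70 on the opposite strand, and the second held 1 AGGTCA match at -196 to -191. Of 32851 promoter windows of this length, 16.1% held AGAACA, 14% held AGGTCA, 33.8% held CCAAT, 6.02% held CACGTG and 1.05% held TCACNCCAC. These matches are letters in a window and were not tested as binding sites. Windows were also present for Agpat2, Agpat3, Lpin2 and Lpin3, and among these 1 E-box match stood in the first of the 3 Lpin2 windows, at -9 to -4. The third Lpin2 window held 3 CCAAT matches and 1 AGAACA match, and the first Lpin3 window held 1 AGAACA match, all on the opposite strand.

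The 10 genes lie at separate places in the genome except for a neighbouring pair. Dgat2 (chr7:99153663-99182713) and Mogat2 (chr7:99219084-99238611), which belong to one enzyme family, stand next to each other on chromosome 7. Gpd1 (chr15:99717587-99725014) and Dgat1 (chr15:76502012-76512021) share chromosome 15, and Agpat2 (chr2:26593057-26604417) and Lpin3 (chr2:160880670-160906000) share chromosome 2. Gpam lies at chr19:55067635-55127319, Agpat3 at chr10:78269174-78352497, Lpin1 at chr12:16535669-16653903 and Lpin2 at chr17:71183532-71249818.

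The first comparison set the tissues side by side in control mice. Most of the pathway was higher in BAT: 8 of the 10 members were DEGs, all with higher counts in BAT, against 60.0% of all 13797 genes tested. Agpat2, the main lysophosphatidate acyltransferase of adipocytes, measured 853, 1127 and 1202 CPM in the BAT controls and 10.2 to 13.3 CPM in the SkM controls, a log2 difference of 6.27 (SE 0.17, edgeR adjusted p = 4.17e-11). Dgat1, the DGAT of the endoplasmic reticulum membrane, measured 144 to 175 CPM against 4.84 to 5.75 CPM (log2 difference 4.70, SE 0.11). Dgat2, the unrelated DGAT that works at lipid droplets too, stood at 1855 to 1865 CPM in the BAT controls, against 59.0 to 82.3 CPM in muscle (log2 difference 4.44, SE 0.15).

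The other differences between the tissues were smaller. Gpd1 was higher in BAT by 3.15 (SE 0.13), Agpat3 by 1.66 (SE 0.089), Lpin2 by 1.61 (SE 0.14) and Gpam by 0.65 (SE 0.11) on the log2 scale. Without BAT control replicate 3 the Gpam difference was 0.57, under the fold minimum. Mogat2 was near the floor in both tissues: the BAT controls held 11 to 13 counts and the SkM controls held 0, so against a floor of 3 counts per library, with both tissues scaled together, it was at least 3.16-fold higher in BAT. Lpin1 was the exception among the abundant enzymes, with control libraries from 281 to 360 CPM (BAT) and from 240 to 321 CPM (SkM). Its log2 difference with both tissues scaled together was -0.13 (95% interval -0.41 to 0.15, edgeR adjusted p = 0.369), and that of Lpin3 was -0.40 (-0.90 to 0.10, adjusted p = 0.134).

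Dividing by the median length of the coding transcripts allows levels of different genes to be ordered. In BAT controls Gpd1 led with 2288 ± 154 CPM per kb (SD, n = 3), followed by Dgat2 (1409 ± 4.08) and Agpat2 (1101 ± 190), and then by Agpat3 (198 ± 5.89). Gpam (89.1 ± 9.45), Dgat1 (86.8 ± 9.09) and Lpin1 (76.1 ± 10.1) came next, and their libraries overlapped. Lpin2 (1.78 ± 0.144), Lpin3 (0.843 ± 0.139) and Mogat2 (0.289 ± 0.0324) closed the order. In SkM controls Gpd1 again led, at 213 ± 8.53 CPM per kb (n = 4), but Lpin1 came second at 68.8 ± 8.16, ahead of Dgat2 (53.6 ± 7.55), Agpat3 (52.0 ± 1.78) and Gpam (46.8 ± 4.35). Dgat2 overlapped with Lpin1, Agpat3 and Gpam in its libraries, and Agpat3 overlapped with Gpam. The middle of the order depended on the length used. With the longest transcript the BAT controls ran Dgat1 (86.8 CPM per kb), Agpat3 (78.8), Lpin1 (56.0) and Gpam (50.8), with Dgat1 and Agpat3 overlapping and Lpin1 and Gpam overlapping, and in the SkM controls Gpam (26.7) stood above Agpat3 (20.7) without overlap.

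**Figure D1:**
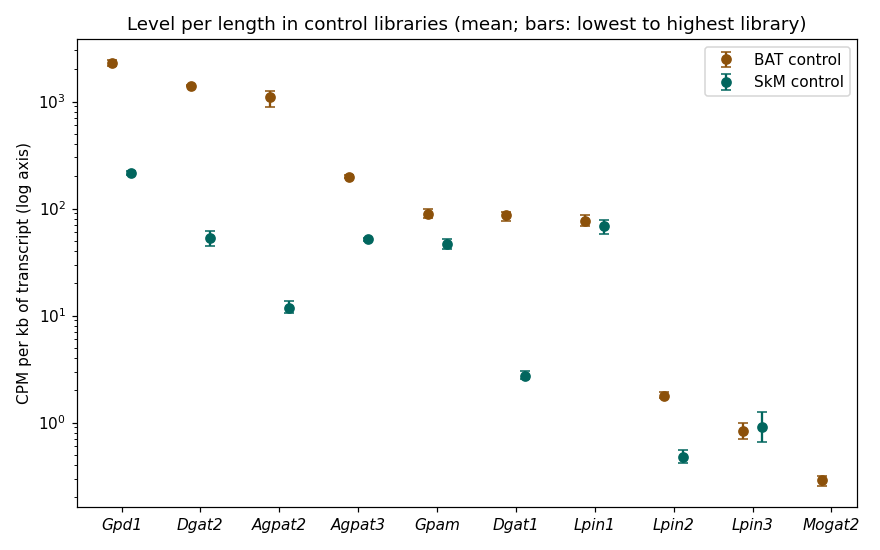
Level per length (CPM per kb of coding transcript, log axis) of the 10 enzymes in control libraries of BAT (n = 3) and SkM (n = 4); points are means and bars run from the lowest to the highest library. Lpin1 and Lpin3 lie at similar heights in both tissues, whereas Agpat2 differs most; Mogat2 in SkM is at 0 and not drawn.

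Within each step, one isozyme usually made up most of the level per length. Lpin1 was 96.7% ± 0.187 of the lipin level in BAT controls and 98.0% ± 0.463 in SkM controls, and Dgat2 was 94.2% ± 0.574 and 95.1% ± 0.384 of the DGAT level. Agpat2 was 80.8% ± 2.71 of the AGPAT level in BAT and 10.2% ± 0.934 in SkM, where Agpat3 (45.3% ± 2.51) and Agpat1 (41.0% ± 1.76) were the larger shares; with the longest transcript as length their order turned, to 29.0% and 57.5%. For the first acylation, Gpam was 44.3% ± 1.67 and Gpat4, an isozyme of the endoplasmic reticulum, 53.7% ± 1.56 in BAT, but Gpam was 82.3% ± 1.40 in SkM.

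In BAT, most members did not pass the test under CR, with Lpin1 higher and Agpat3 and Gpam lower among those that did. Against control, 1 of the 10 members was a DEG, compared with 10.7% of the 13323 genes tested, and 3 had an adjusted p under 0.05 without regard to fold, compared with 20.9%. The median log2 fold change of the members was 0.02 and that of all genes tested was 0.00. In the same libraries 5 of 7 brown adipocyte markers had lower values and 2 higher. Of 5 endothelial markers 4 were lower and 1 higher, and all 5 macrophage markers were lower. Brown adipocyte markers summed to 4225 to 5032 CPM in CR and 6284 to 7413 CPM in controls without overlap, and 1 of 7 passed on the adjusted p, a DEG lower in CR. Their mean log2 level overlapped, at 6.94 to 7.43 in CR and 7.26 to 7.73 in controls. Endothelial markers summed to 230 to 288 CPM against 320 to 360 CPM, with 3 of 5 lower on the adjusted p, and 2 of 5 macrophage markers were lower on it. General adipocyte markers summed to 10014 to 11181 CPM in CR and 9289 to 10392 CPM in controls, with overlap. Of these 7 markers 3 were higher and 4 lower, and 1 passed on the adjusted p, lower. All 12 fast fibre markers had higher values in CR, with 0 at an unadjusted p under 0.05 by edgeR. The part of these markers in the members' values was not tested.

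Lpin1, the phosphatidate phosphatase that also acts as a transcriptional coactivator, was the DEG. The BAT CR libraries measured 564, 606, 443 and 365 CPM and the control libraries 359.7, 297 and 281 CPM. Every CR library was above every control, the closest pair being CR replicate 4 and control replicate 1. The log2 fold change was 0.66 (SE 0.19, edgeR adjusted p = 0.0459), and the call was lost when any 1 of CR replicates 1, 2 or 3 or any control library was left out, with log2 fold changes of 0.54 to 0.77. Fast fibre markers summed to 59.5 and 92.2 CPM in CR replicates 1 and 2, the CR libraries with most Lpin1, and with these markers as a covariate the log2 fold change was 0.69 (adjusted p = 0.0425).

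Gpam of the first acylation and Agpat3 of the second were lower, by less than the fold minimum, whereas Agpat2 of the second overlapped its controls. Agpat3, which acylates lysophosphatidate and other lysophospholipids, measured 357, 342, 392 and 338 CPM in CR and 471, 485 and 457 CPM in controls, without overlap (log2 fold change -0.40, SE 0.069, edgeR adjusted p = 0.0034), and none of 14 alternatives ended that call. Gpam, the mitochondrial enzyme of the first acylation, measured 247, 203, 279 and 261 CPM in CR and 285, 305 and 350.0 CPM in controls. The CR libraries again lay below all the controls, but the call was marginal (log2 fold change -0.34, SE 0.11, adjusted p = 0.04997) and was lost under 9 of 14 alternatives, among them leaving out CR replicate 1, 2 or 4 or any control library.

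The remaining members did not pass the test in BAT under CR. Gpd1 measured 6000.4, 4883, 6728 and 6008 CPM in CR against 4656, 5031 and 5329.7 CPM in controls, with overlap (log2 fold change 0.24, SE 0.099, edgeR adjusted p = 0.111), and without CR replicate 2 its adjusted p passed. Dgat1 had 168 to 214 CPM against 144 to 175 CPM (0.19, SE 0.099, adjusted p = 0.191). For Dgat2 the 95% interval of the log2 fold change was -0.27 to 0.09 and for Agpat2 it was -0.33 to 0.33. Lpin2 (-0.19 to 0.27) and Lpin3 (-0.20 to 0.58) overlapped their controls, and Mogat2, with 2 to 16 counts a library, had an interval of -1.26 to 0.77.

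**Figure D2:**
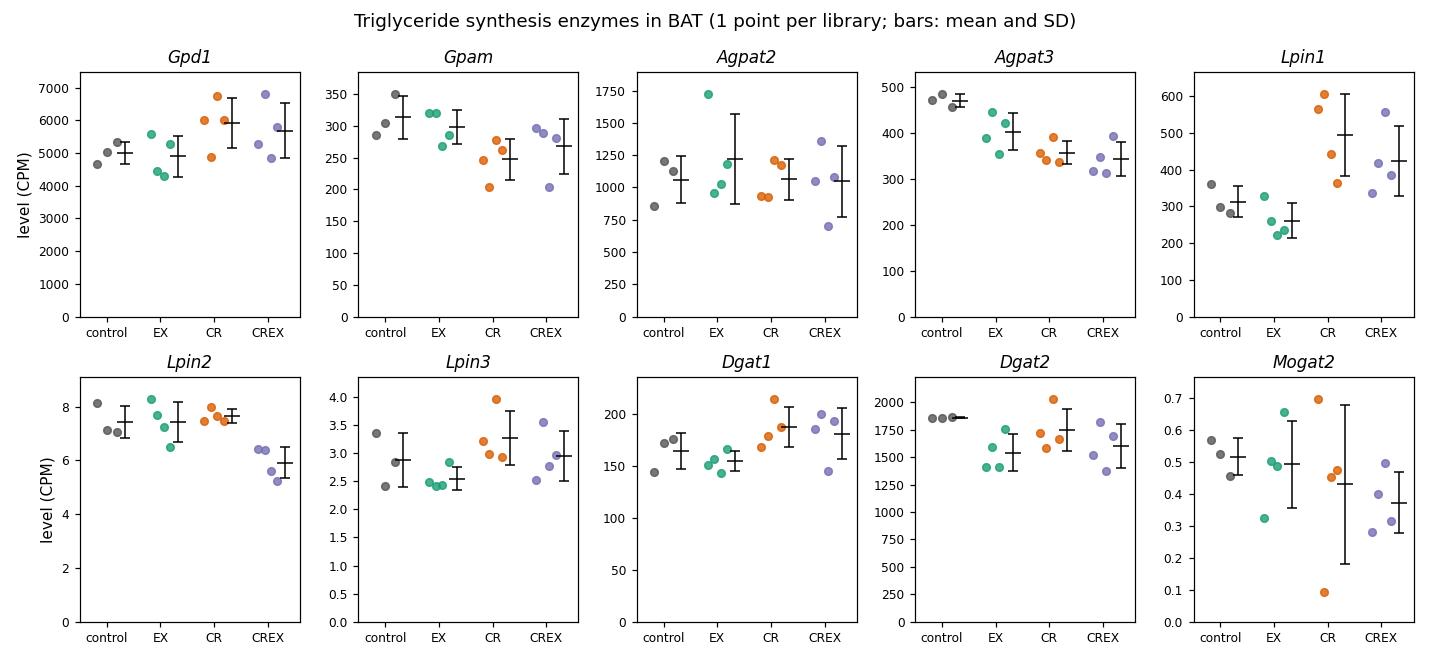
Level (CPM, linear axis from 0) of the 10 enzymes in the 15 BAT libraries by group; points are libraries, and bars give the mean and SD. The Lpin1 points of CR (365 to 606 CPM) and CREX (335 to 557 CPM) lie above those of control and EX respectively, and the Agpat3 points of CR lie below those of control.

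The same diet was compared in trained mice by setting CREX against EX. In BAT 1 of 10 members was a DEG, against 4.48% of the 13251 genes tested, and without the fold minimum it was the same count against 8.01%. This comparison shares no library with CR against control. Lpin1 again was the gene: CREX measured 335, 417, 557 and 385 CPM and EX measured 329, 259.5, 222 and 234 CPM. All CREX libraries were above all EX libraries, though CREX replicate 1 and EX replicate 1 differed by little. The log2 fold change was 0.69 (SE 0.17, edgeR adjusted p = 0.0437), and the call was lost without any 1 of replicates 2, 3 or 4 of either group, with values of 0.53 to 0.74.

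In CREX too, 5 of 7 brown adipocyte markers had lower values and 2 higher. They summed to 3281 to 4685 CPM against 5464 to 6405 CPM in EX without overlap, and 3 of 7 passed on the adjusted p, all lower. Their mean log2 level overlapped, at 6.58 to 7.33 in CREX and 7.26 to 7.53 in EX. By edgeR 0 of 5 endothelial and 0 of 5 macrophage markers passed, with 2 and 3 at an unadjusted p under 0.05. The part of these markers was not tested.

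Muscle marker sums varied widely between the libraries of this comparison. CREX replicate 3, with the highest Lpin1 level in its group, had the highest summed fast fibre markers of the BAT libraries (7436 CPM), and with these markers as a covariate the Lpin1 log2 fold change was 0.63 (edgeR adjusted p = 0.0724). Without the libraries over 4000 CPM of these markers, an alternative chosen after seeing the data, the log2 fold change was 0.43 (adjusted p = 0.219). EX replicates 2 and 3, at 4635 and 4741 CPM of the markers, had low Lpin1 levels, as did EX replicate 4 at 51.1 CPM. All 12 fast fibre markers were tested in this comparison, and none was a DEG by edgeR nor had an unadjusted p under 0.05 (0 of 12).

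Among the other members in BAT, Agpat3 was at 313 to 393 CPM in CREX and 354 to 447 CPM in EX (log2 fold change -0.24, SE 0.096, edgeR adjusted p = 0.151). Lpin2, a lipin better known from liver, measured 6.43, 6.38, 5.62 and 5.25 CPM in CREX against 8.27, 7.68, 7.25 and 6.48 CPM in EX, without overlap (-0.33, SE 0.12, adjusted p = 0.114). The Dgat1 value was 0.22 (SE 0.099, adjusted p = 0.192) and passed without CREX replicate 3, that of Gpam -0.16 (SE 0.12) and that of Gpd1 0.21 (SE 0.12). Dgat2, Agpat2, Lpin3 and Mogat2 each overlapped between the groups.

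**Figure D3:**
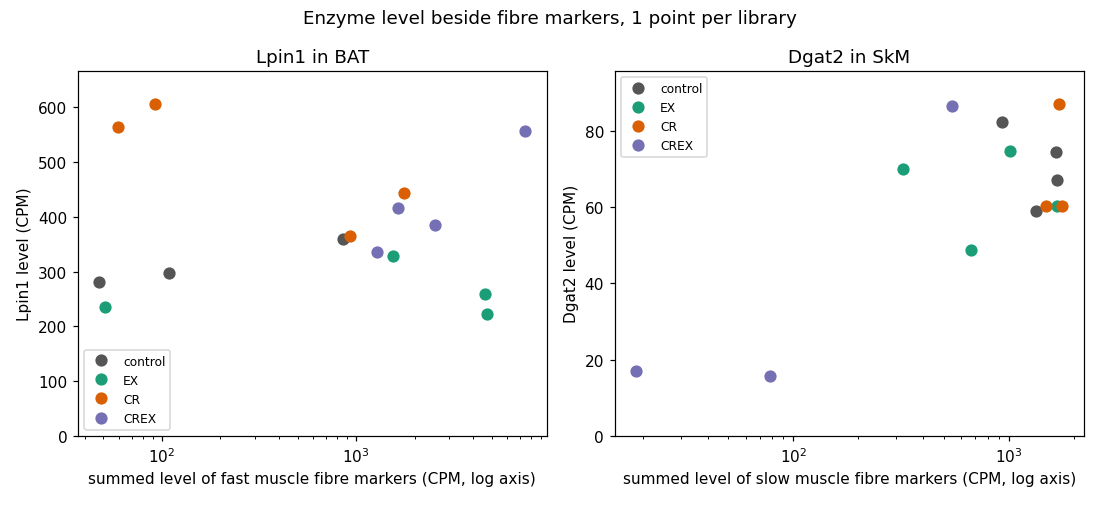
Lpin1 level (CPM) in the 15 BAT libraries against summed fast fibre markers, and Dgat2 level (CPM) in the 14 SkM libraries against summed slow fibre markers, both with a log x axis and 1 point per library, coloured by group. In BAT the Lpin1 levels of 564 and 606 CPM (CR) stand at low marker sums and 557 CPM (CREX) at the highest sum, and in SkM both CREX points under 20 CPM of Dgat2 stand at the lowest sums.

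In SkM under CR, the first acyltransferase Gpam was lower and Gpd1, which supplies the glycerol backbone, was higher. Of the 9 members tested, 1 was a DEG, against 9.60% of the 13173 genes tested, and 2 passed on the adjusted p alone, against 14.0%. Mogat2 was not tested, since no SkM library held more than 1 count. Endothelial markers were lower in the same libraries, summing to 141 to 185 CPM in CR and 233 to 293 CPM in controls without overlap, with 4 of 5 lower on the adjusted p and 3 of these DEGs. Their part in the members' values was not tested. Of 5 adipocyte markers tested, 4 were higher in CR and 1 lower, with a median log2 fold change of 3.01. By edgeR 4 of them had an unadjusted p under 0.05, against 3866 of the 13173 genes tested, and 0 passed on the adjusted p. Adipocyte sums overlapped, at 136 to 282 CPM in CR and 149 to 224 CPM in controls.

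Gpam measured 64.4, 105 and 105 CPM in the SkM CR libraries and 158, 147, 169 and 183 CPM in controls. Every CR library was below every control, and replicate 1 was lowest. The log2 fold change was -0.84 (SE 0.17, edgeR adjusted p = 0.0103), and it was lost under 1 of 16 alternatives, with adipocyte markers as a covariate (-0.75, adjusted p = 0.113). With hepatocyte markers as a covariate, chosen after seeing the data, it was -1.75 (edgeR adjusted p = 0.0093). Hepatocyte sums did not overlap between CR (65.8 to 302 CPM) and controls (7.04 to 10.8 CPM). This covariate therefore cannot be told apart from CR, here or for the genes below.

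Gpd1 measured 684, 757 and 639 CPM in CR and 462, 494, 452 and 457 CPM in controls, again without overlap. Its log2 fold change of 0.58 (SE 0.11, edgeR adjusted p = 0.0078) was a fold of 1.49, just under the minimum. With hepatocyte markers as a covariate, which cannot be told apart from CR here, it was 0.56 (edgeR adjusted p = 0.174). Agpat3 stood on the threshold, with 105, 91.6 and 92.4 CPM in CR against 120.4, 119, 127 and 127 CPM in controls and no overlap (log2 fold change -0.35, SE 0.11, adjusted p = 0.0501). It passed with DESeq2 (adjusted p = 0.0069) and without CR replicate 1 (-0.43, edgeR adjusted p = 0.0142), and was -0.03 with hepatocyte markers as a covariate.

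Lpin2 and Dgat1 had positive values that did not pass. Lpin2 measured 1.89, 3.64 and 3.40 CPM in CR against 1.76 to 2.30 CPM in controls (log2 fold change 0.58, SE 0.23, edgeR adjusted p = 0.127). CR replicates 2 and 3, the higher libraries, had 285 and 302 CPM of hepatocyte markers against 65.8 CPM in replicate 1. With these markers as a covariate, again not separable from CR, the Lpin2 value was -0.61 (edgeR adjusted p = 0.452). Without CR replicate 1 it was 0.80 (adjusted p = 0.0142). Dgat1 measured 8.03, 5.65 and 8.21 CPM against 4.84 to 5.75 CPM (0.49, SE 0.16, adjusted p = 0.0628), and without CR replicate 2, whose adipocyte markers summed to 136 CPM against 272 and 282 CPM in the others, it passed.

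The log2 fold change of Lpin1 under CR in SkM had an interval of -0.23 to 0.44, with libraries of 364, 269 and 271 CPM among controls of 239.6 to 321 CPM. Dgat2 (-0.38 to 0.33), Agpat2 (-0.52 to 0.47) and Lpin3 (-0.72 to 0.28) also overlapped their controls.

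**Figure D4:**
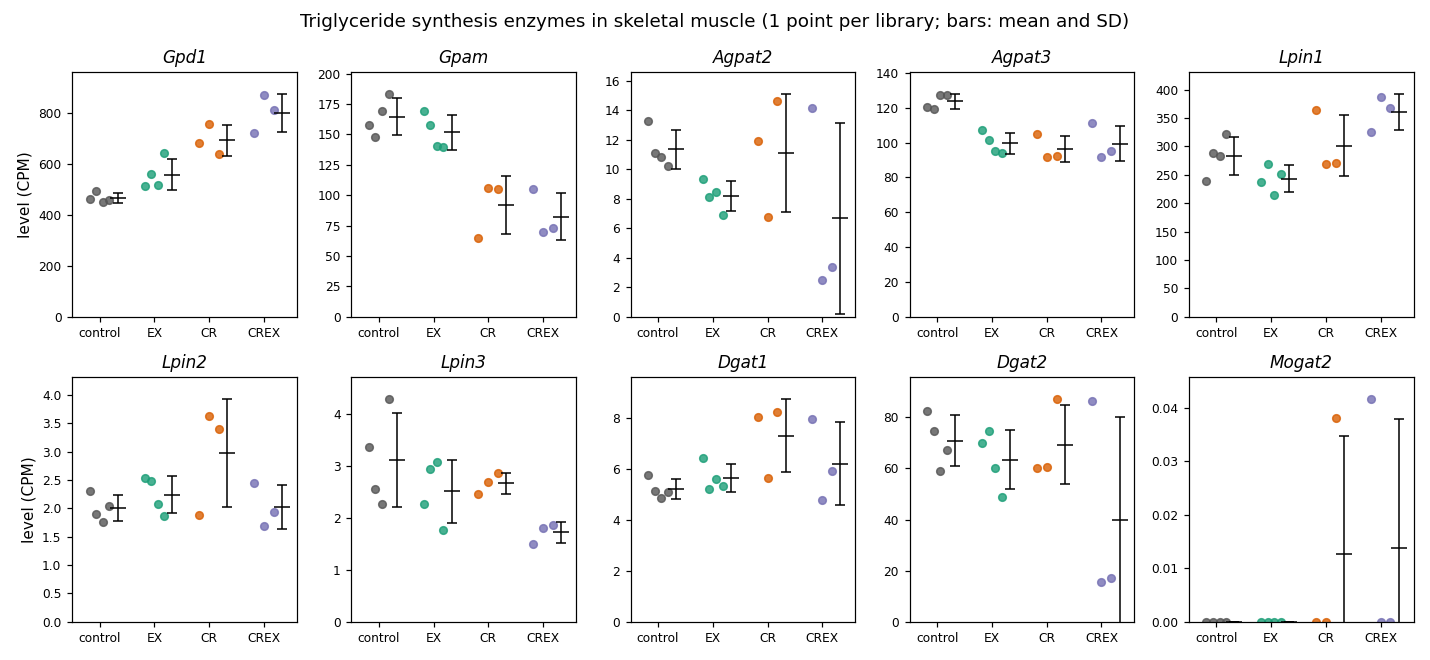
Level (CPM, linear axis from 0) of the 10 enzymes in the 14 SkM libraries by group; points are libraries, and bars give the mean and SD, cut at 0. Gpam is lower and Gpd1 higher in CR than in control and in CREX than in EX, while the Dgat2 and Agpat2 points of CREX split into 1 high and 2 low libraries.

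In trained mice the SkM comparison of CREX with EX gave 1 DEG among 9 members tested, against 8.87% of the 13112 genes tested, and 3 members on the adjusted p alone, against 13.6%. Gpam measured 105, 69.7 and 72.6 CPM in CREX and 169.7, 158, 141 and 139 CPM in EX, without overlap (log2 fold change -0.88, SE 0.16, edgeR adjusted p = 0.0116). Gpd1 measured 723, 870.0 and 811 CPM against 514, 561, 517 and 643 CPM (0.52, SE 0.12, adjusted p = 0.0258). Lpin1 measured 326, 388 and 369 CPM against 238, 269.6, 214 and 251 CPM (0.57, SE 0.12, adjusted p = 0.0168). For each of these genes all CREX libraries lay on one side of all EX libraries, and Gpd1 and Lpin1 were below the fold minimum. Endothelial markers summed to 104 to 212 CPM in CREX and 233 to 292 CPM in EX, without overlap, and 2 of 5 were DEGs, both lower. Their part was not tested.

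Summed slow fibre markers ranged from 18.6 to 546 CPM in CREX and from 322 to 1683 CPM in EX, with overlap. With these markers as a covariate, chosen after seeing the data, the log2 fold changes were -0.75 for Gpam (edgeR adjusted p = 0.112), 0.45 for Gpd1 (0.256) and 0.47 for Lpin1 (0.202). Of the 6 slow fibre markers, 0 were DEGs in the comparison by edgeR and 0 had an unadjusted p under 0.05. Without CREX replicate 2 the calls of all 3 genes were lost. Those of Gpd1 and Lpin1 were also lost without EX replicate 1 or 3, and that of Gpd1 without EX replicate 2 or CREX replicate 3.

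Dgat2 and Agpat2 split the SkM CREX libraries. Dgat2 measured 86.4 CPM in replicate 1 but 15.6 and 17.0 CPM in replicates 2 and 3, against 48.8 to 74.7 CPM in EX. Agpat2 measured 14.2, 2.5 and 3.37 CPM against 6.89 to 9.32 CPM. The low libraries had the lowest slow fibre sums (78.0 and 18.6 CPM) and adipocyte sums of 85.1 and 125 CPM, and replicate 1 had 315 CPM of adipocyte markers and 89.9 CPM of hepatocyte markers. With all 3 libraries the log2 fold changes were -0.68 for Dgat2 (SE 0.65, edgeR adjusted p = 0.515) and -0.30 for Agpat2 (SE 0.58, adjusted p = 0.758). Without replicate 1 they were -1.96 (edgeR adjusted p = 4.61e-05) and -1.48 (edgeR adjusted p = 0.000237). In that fit 5 members were DEGs, among 2570 genes called, against 1163 genes called with all 3 libraries. With all 3 libraries and slow fibre markers as a covariate, the log2 fold changes were -0.13 for Dgat2 (edgeR adjusted p = 0.944) and 0.26 for Agpat2 (0.867). With adipocyte markers as a covariate they were -1.44 (0.173) and -0.95 (0.24), and with hepatocyte markers -1.95 (0.00087) and -1.48 (0.00037). The slow fibre and hepatocyte covariates were chosen after seeing the data.

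**Figure D5:**
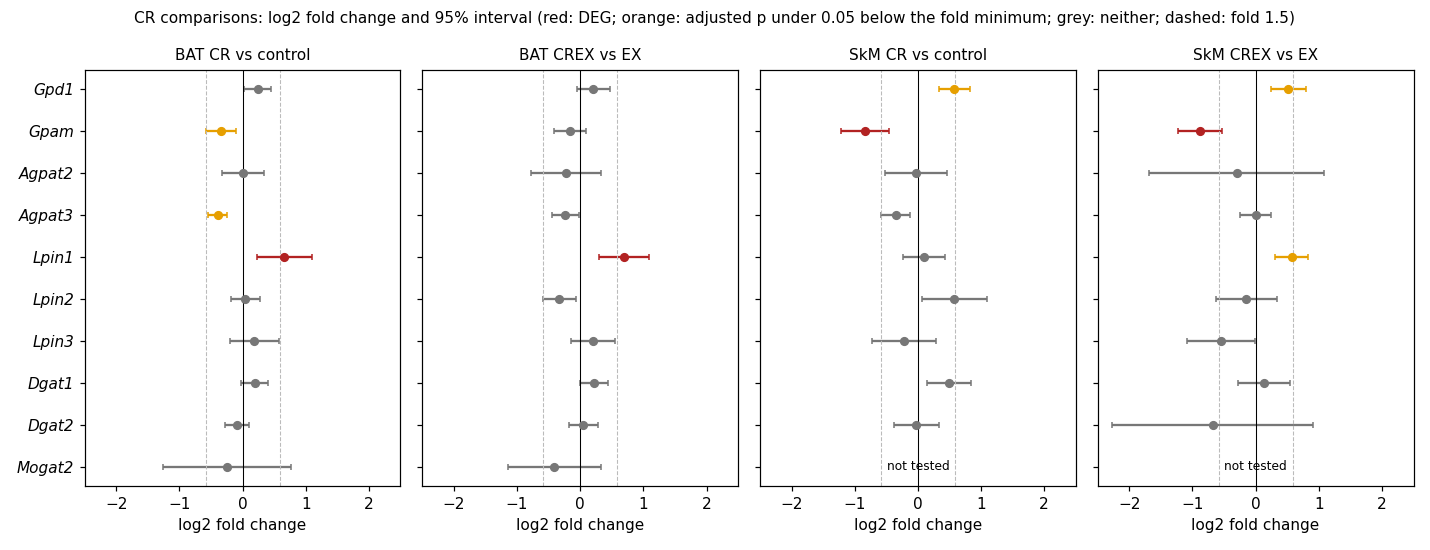
Log2 fold change with its 95% interval (edgeR) for the 10 enzymes in the CR comparisons of both tissues; red points are DEGs, orange points have an adjusted p under 0.05 below the fold minimum, and dashed lines mark a fold of 1.5. Lpin1 is red in both BAT panels and Gpam in both SkM panels, and the Dgat2 interval in SkM CREX against EX runs from -2.27 to 0.91.

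Running alone gave no member past the test in either tissue. In BAT, EX against control had no DEG by edgeR among the 10 members, with 0% of 13407 genes called. DESeq2 called 0 members and 36 genes in all. Of all genes tested 972 had an unadjusted p under 0.05 by edgeR, and 2 members did. These were Dgat2, with 1405, 1590.5, 1407 and 1759 CPM in EX against 1860.5, 1855 and 1865 CPM in controls (log2 fold change -0.26, SE 0.089, adjusted p = 0.58), and Agpat3 (-0.21, SE 0.085, adjusted p = 0.664). Both were without overlap. In SkM, EX against control called 0 members and 49 genes in all by DESeq2. By edgeR it called 0 of 9 members, against 0.0775% of the 12907 genes tested. Of these genes 884 had an unadjusted p under 0.05 by edgeR, and 3 members did. Agpat2 measured 6.89 to 9.32 CPM against 10.2 to 13.3 CPM (-0.47, SE 0.12, adjusted p = 0.204), Agpat3 94.0 to 107 CPM against 119 to 127 CPM (-0.32, SE 0.079, adjusted p = 0.201 by edgeR and 0.0073 by DESeq2, below the fold minimum), and Gpd1 514 to 643 CPM against 452 to 494 CPM (0.26, SE 0.093, adjusted p = 0.545).

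Adding running to CR gave similar counts. In BAT, CREX against CR called 0 members and 30 genes in all by DESeq2. By edgeR it called 0 of 10 members, against 0.00763% of the 13112 genes tested. An unadjusted p under 0.05 was reached by 1001 of these genes and by 1 member. That member was Lpin2, at 5.25 to 6.43 CPM in CREX and 7.46 to 8.0 CPM in CR without overlap (log2 fold change -0.37, SE 0.10, edgeR adjusted p = 0.46). In SkM the same comparison called 0 of 9 members by edgeR, with 0% of 13068 genes called, and 0 members and 36 genes in all by DESeq2. Among all genes 477 had an unadjusted p under 0.05. Lpin3 was the only such member, at 1.5 to 1.86 CPM against 2.46 to 2.86 CPM (-0.64, SE 0.22, edgeR adjusted p = 0.999). Without CREX replicate 1 the Dgat2 value was -2.10 (edgeR adjusted p = 0.0083), in a fit that called 99 genes against 0 with all libraries.

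Whether CR acted differently in trained mice was tested by the interaction of CR and EX. In BAT 0 of 10 members were called by edgeR and 0 by DESeq2 (0% of 13922 genes by edgeR and 4 genes by DESeq2). By edgeR 1 member had an unadjusted p under 0.05. In SkM 0 of 9 were called by either tool (0% of 13610 genes by edgeR and 1 gene by DESeq2). By edgeR 3 members had an unadjusted p under 0.05. Among all genes tested 800 in BAT and 669 in SkM had an unadjusted p under 0.05. The interaction of Lpin1 was 0.03 (SE 0.28) in BAT and 0.49 (SE 0.20, edgeR adjusted p = 0.941) in SkM on the log2 scale, and that of Gpam was 0.18 (SE 0.17) and -0.03 (SE 0.24). Without SkM CREX replicate 1 the Dgat2 interaction in SkM was -1.89 (edgeR adjusted p = 0.0016). That fit called 182 genes, against 0 with all libraries. The Lpin1 call in SkM CREX against EX and its absence in SkM CR against control were therefore not shown to differ.

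The tissues were also compared for their response. For CR against control DESeq2 called 0 members and 1627 genes in all as differing between BAT and SkM. By edgeR 0 of 10 members differed, against 7.58% of the 14369 genes tested. An unadjusted p under 0.05 was reached by 3336 of these genes and by 3 members. For Gpam the BAT fold change minus the SkM one was 0.51 (SE 0.23, edgeR adjusted p = 0.181) and for Lpin1 it was 0.57 (SE 0.24, adjusted p = 0.171). That of Lpin2 was -0.53 and, without SkM CR replicate 1, -0.75 (adjusted p = 0.0195). For CREX against EX 0 of 10 members were called by edgeR, against 5.58% of the 14410 genes tested. An unadjusted p under 0.05 was reached by 3199 of these genes and by 2 members. DESeq2 called 1360 genes in all and 1 member. That member was Gpam, with a difference of 0.73 (SE 0.21, edgeR adjusted p = 0.0555), and it passed without BAT CREX replicate 3. Without SkM CREX replicate 1 the differences were 0.93 for Gpam, 2.01 for Dgat2 and 1.25 for Agpat2, each past the threshold. That fit called 2237 genes, against 804 with all libraries. Lpin1 was a DEG in BAT alone and Gpam in SkM alone, but each also passed on the adjusted p in a comparison of the other tissue, and neither was shown by the main test to be particular to one.

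The share of each isozyme was not tested and is given as a description. Gpam was 44.3% ± 1.67 of the glycerol-3-phosphate acyltransferase level in BAT controls and 37.9% ± 2.60 in CR, and the libraries did not overlap (43.1% to 46.2% against 34.4% to 40.2%). In SkM it was 82.3% ± 1.40 in controls, 81.8% ± 1.23 in EX, 71.4% ± 5.58 in CR and 67.1% ± 5.77 in CREX, and Gpat4 was 15.3%, 16.5%, 26.1% and 30.9%. The Gpat4 level itself had log2 fold changes of 0.09 (SE 0.11) in SkM CR and 0.28 (SE 0.10, edgeR adjusted p = 0.0934) in SkM CREX. Lpin1 was at 96.1% to 98.9% of the lipin level in group means, and Dgat2 at 85.6% to 95.1% of the DGAT level, with its lowest mean in SkM CREX.

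The 37 neighbouring genes of the pathway were described in 6 lists, whose counts below are of genes passing on the adjusted p alone. They are to be read against the shares of all genes tested that passed this way: 20.9% in BAT CR against control, 8.01% in BAT CREX against EX, 14.0% in SkM CR against control and 13.6% in SkM CREX against EX. An unadjusted p under 0.05 was reached by 4767 of 13323, 3392 of 13251, 3866 of 13173 and 4235 of 13112 genes in these comparisons. In the supply of the glycerol backbone, 5 genes were tested in each comparison. In BAT under CR 2 of 5 passed, 1 higher and 1 lower: Gpd1l, a relative of Gpd1, rose by 0.22 (SE 0.068) and Aqp7, the glycerol channel of fat cells, changed by -0.52 (SE 0.073). CREX against EX gave the same counts, with 0.31 for Gpd1l and -0.49 for Aqp7. In SkM CREX against EX 0 of 5 passed by edgeR, with 1 at an unadjusted p under 0.05. In SkM under CR 1 of 5 passed, Pck1, higher, the enzyme of glyceroneogenesis, at 6.58, 9.48 and 17.3 CPM against 0.186 to 0.915 CPM (log2 fold change 4.18, SE 0.42, edgeR adjusted p = 0.00039). Pck1 is also abundant in liver, and the hepatocyte markers were higher in the same libraries; their part in it was not tested.

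Of the other acyltransferases of these steps, 2 of 6 passed in BAT under CR, 1 higher and 1 lower. Gpat3, a glycerol-3-phosphate acyltransferase of fat cells, was a DEG (3.37 ± 1.2 CPM against 11.6 ± 1.42 CPM, log2 fold change -1.77, SE 0.23, edgeR adjusted p = 0.0012), and Agpat1 rose by 0.28 (SE 0.085). In BAT CREX against EX 0 of 6 passed by edgeR, with 0 at an unadjusted p under 0.05. In SkM 0 of 5 passed in either CR comparison, with 1 and 2 at an unadjusted p under 0.05.

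Fatty acid activation is the step that supplies acyl-CoA. In BAT 2 of 5 genes passed under CR and 1 of 5 in CREX against EX, all higher. Slc27a1, a fatty acid transport protein with acyl-CoA synthetase activity, measured 381, 392, 542 and 417 CPM in CR and 171, 212 and 216 CPM in controls (log2 fold change 1.12, SE 0.14, edgeR adjusted p = 0.0012), and 484 to 662 CPM in CREX against 149 to 197 CPM in EX (1.71, SE 0.12, adjusted p = 0.00028). Acsl4, which favours arachidonate, rose by 0.57 (SE 0.14) under CR.

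In SkM, Acsl1, the main acyl-CoA synthetase of fat and muscle, was lower: 157, 193 and 217 CPM in CR against 361 to 401 CPM in controls (log2 fold change -1.03, SE 0.13, edgeR adjusted p = 0.0011). In CREX it measured 241, 126 and 115 CPM against 263 to 339 CPM in EX (-0.91, SE 0.25, edgeR adjusted p = 0.0482). Slow fibre markers summed to 546, 78.0 and 18.6 CPM in CREX replicates 1, 2 and 3. The part of these markers in the CREX values of the 6 lists was not tested. Acsl6 rose by 0.42 (SE 0.11) in CR and by 0.62 (SE 0.16) in CREX, and Acsl3 rose by 1.15 (SE 0.27) in CREX. In all 2 of 6 passed in CR, 1 higher and 1 lower, and 3 of 6 in CREX, 2 higher and 1 lower.

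The phospholipid branch takes phosphatidate or diacylglycerol away from triglyceride. In BAT 2 of 10 genes passed under CR, both higher: Pcyt2, an enzyme of phosphatidylethanolamine synthesis, at 106 ± 5.70 CPM against 66.9 ± 2.23 CPM (log2 fold change 0.67, SE 0.069, edgeR adjusted p = 0.00022), and Selenoi, which completes that lipid, by 0.44 (SE 0.092). Selenoi was the 1 of 10 that passed in CREX against EX (0.40, SE 0.11, adjusted p = 0.0493). In SkM 1 of 10 passed under CR and 2 of 10 in CREX, all lower. Cds1, which turns phosphatidate to CDP-diacylglycerol, measured 1.0 ± 0.434 CPM against 2.83 ± 0.560 CPM under CR (-1.48, SE 0.30) and changed by -1.72 (SE 0.37) in CREX, where Chpt1, a cholinephosphotransferase, changed by -0.63 (SE 0.15).

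Of 7 transcriptional regulators, 1 passed in BAT CR, 1 in SkM CR and 2 in SkM CREX. Mlxipl, which encodes the carbohydrate-responsive factor ChREBP, was among them each time. It rose by 0.34 (SE 0.069, edgeR adjusted p = 0.0071) in BAT under CR, and its SkM values were -0.52 (SE 0.12, adjusted p = 0.0179) under CR and -0.70 (SE 0.18, adjusted p = 0.0364) in CREX. Nr1h3, which encodes the oxysterol receptor LXR alpha, rose by 0.45 (SE 0.11) in SkM CREX. In BAT CREX against EX 0 of 7 passed by edgeR, with 1 at an unadjusted p under 0.05. The phosphatase that acts on lipin and its regulatory subunit had 0 of 2 genes past the test in any of the CR comparisons by edgeR. Of these genes 0 had an unadjusted p under 0.05.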

How the data were processed

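BAT and gastrocnemius RNA of 29 libraries was sequenced. The authors trimmed and aligned reads to mm10 with STAR (2.7.10a) and deposited estimated counts per gene from RSEM. The methods and the submitters' processing notes give different RSEM versions, and the gene annotation is not given in the sources used here. The deposited expected counts were rounded to whole numbers; 6.11% of values were not whole. Spreadsheet dates replaced 27 symbols and 2 symbols were repeated. No member was among them.

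Genes passing edgeR's (4.0.16) filterByExpr were scaled by TMM and tested by its quasi-likelihood test on the groups compared. DESeq2 (1.42.0), other filters, marker covariates, left-out libraries and a replicate block were alternatives. The fits were tested on simulated data. Intervals are 95% and a floor of 3 counts covers counting error only. The members and lists were chosen with earlier results of these data known. All 10 members are named, and pathway genes when called in a CR comparison. Replicate numbers were not taken to pair the samples. The labels do not say whether same-numbered BAT and SkM libraries came from the same mouse, and the main tissue tests treated them as independent. CPM per kb uses GENCODE vM21 transcript lengths, and promoters and coordinates are from RefSeq on GRCm38.p6.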

Additional observations from a re-analysis of the deposited data

Results flagged for a closer look

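Lpin3 in BAT EX replicate 4 measured 2.84 CPM, apart from 2.42 to 2.49 CPM in the other 3 libraries, with a gap of 0.833 of the group's range. It was the one value flagged in 48 groups of 4 libraries examined, and about 1 group in 20 is flagged by chance.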

How the results depend on the processing

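The count of members called moved by over 1.5 times under these alternatives. In BAT CR against control, where 1 member was called, testing without a filter on low counts gave 0 and dropping the fold minimum gave 3. These fits called 1452 and 2778 genes in all, against 1430 in the main fit. In BAT CREX against EX, also 1, the count was 0 without the filter, 0 with the replicate block, 0 with fast fibre markers as a covariate and 0 without the libraries richest in muscle RNA. All genes called numbered 572, 465, 695 and 261 in these fits, against 594 in the main fit. In SkM CR against control, 1, DESeq2 gave 2 (1445 genes in all) and no fold minimum gave 2 (1839 genes), against 1264 genes in the main fit. In SkM CREX against EX, 1, no fold minimum gave 3, adipocyte markers as a covariate gave 2, slow fibre markers 0 and hepatocyte markers 5. Over all genes these fits called 1781, 1598, 61 and 2489, against 1163 in the main fit. For the tissue difference of CREX against EX, 0, DESeq2 gave 1, a minimum of 10 counts in every library gave 1 and the replicate block gave 1. Here 1360, 988 and 538 genes were called in all, against 804 in the main fit.

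Leaving out 1 library at a time, the members called ranged from 0 to 1 in BAT CR against control and in BAT CREX against EX, 1 to 2 in SkM CR against control, 0 to 5 in SkM CREX against EX, 0 to 1 in SkM CREX against CR, 0 to 1 in the SkM interaction, 0 to 1 and 0 to 3 in the tissue differences of CR and of CREX, and 7 to 8 between the control tissues. It stayed at 0 in the other comparisons. Over all genes the calls ranged from 994 to 1717 in BAT CR against control and 363 to 582 in BAT CREX against EX. The range was 928 to 1377 in SkM CR against control and 343 to 2570 in SkM CREX against EX. It was 0 to 99 in SkM CREX against CR and 0 to 182 in the SkM interaction. For the tissue differences it was 663 to 1424 (CR) and 333 to 2237 (CREX), and between the control tissues 8106 to 8397. Of 2002 refitted member values, 42 lost a call, 25 gained one and 0 called values changed sign. Same-numbered libraries correlated at a mean of -0.26 to 0.17 within comparisons, and the numbers were not taken to pair the samples. With so few pairs these correlations cannot exclude pairing. The block changed the DEG counts of members given above. On the adjusted p alone the block also ended the calls of Gpd1 (0.0511) and Lpin1 (0.0542) in SkM CREX against EX and of Gpam (0.0558) in BAT CR against control, and Agpat3 passed (0.046) in SkM CR against control. Groups of 3 and 4 libraries limit precision, and Mogat2 is at its counting floor in SkM.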
